A study of Danio rerio with 20 samples.

Results

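The genes described here are effectors of the integrated stress response, the transcription factors, feedback regulators and target genes through which a cell answers a block in translation initiation. They were chosen by name as atf4a, atf4b, atf5a, atf5b, ddit3, trib3, ppp1r15a, asns, sesn2 and nupr1a and matched by symbol to the Ensembl identifiers of the count tables. Of these 10 genes, 9 had a row among 32105 identifiers, and all 9 passed the filter on low counts that left 16389 genes for testing. The identifier that carries the name atf4a was not analysed here. The name table writes ddit3, trib3 and asns in capitals, and lower case is used for them throughout.

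Poly(A) RNA was sequenced from zebrafish livers dissected at about 119 h after fertilization from larvae 5 days old, with 12 to 15 livers pooled per library. Exposed as3mt mutants and unexposed as3mt mutants (5 libraries each) were bred from homozygous carriers of an 8 bp CRISPR deletion in as3mt (exon 3), the gene of arsenite methyltransferase, in the WT-ABNYU background, and the deletion was in the whole body. Exposed wild type and unexposed wild type (5 libraries each) were of the WT-TAB5 strain. Exposed larvae received 1 mM sodium arsenite from 96 h after fertilization and unexposed larvae 0 mM. Genotype and strain cannot be told apart in this design, a replicate is a pool of livers, and p-values therefore measure the spread between these pools.

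In the integrated stress response, kinases that sense amino acid shortage, unfolded protein in the endoplasmic reticulum, viral RNA or lack of heme phosphorylate the translation factor eIF2. Most translation then slows, while messages with upstream reading frames, such as those of ATF4 and ATF5, are translated better, so that the activity of these factors is set largely after transcription. ATF4 raises genes of amino acid supply and stress defence, CHOP (the product of ddit3) acts with it, and GADD34 (the product of ppp1r15a) brings a phosphatase to eIF2 and ends the response. Arsenite is a known trigger of this response in mammalian cells.

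Libraries totalled 25406597 to 42047561 counts. Transcripts of as3mt, written AS3MT in the name table, lay between 8.62 and 18.7 CPM (reads scaled to library size with TMM factors) in exposed mutants, 61.8 and 81.1 CPM in unexposed mutants, 29.8 and 73.6 CPM in exposed wild type, and 119 and 134 CPM in unexposed wild type, and an 8 bp deletion leaves most of a transcript countable. Hepatocyte markers were present in every library. Unexposed wild-type replicate 2 and exposed wild-type replicate 5 stood apart from their groups in a principal component analysis. Without both, an alternative chosen after seeing the data, the same effectors were called in each comparison. When libraries were scaled to total counts alone, the typical gene shifted upward, with a median log2 change of 0.83 under arsenite in mutants and 0.75 in wild type, so directions below are relative to the bulk of genes.

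Under arsenite, 5 of the 9 effectors rose and 1 fell in each genotype, and 5 of these 6 genes were the same. The genes atf5a, ddit3, asns and sesn2 rose in both genotypes and ppp1r15a fell in both. The fifth riser was nupr1a in mutants and atf4b in wild type, while atf5b and trib3 passed the test in neither. A gene was called when its edgeR quasi-likelihood p, adjusted by Benjamini and Hochberg over all 16389 genes, was under 0.05. Arsenite changed so much of the transcriptome that 61.8% of all tested genes were called in mutants (31.5% up and 30.3% down) and 53.3% in wild type (28.7% up and 24.6% down), so 6 called of 9 is close to what the whole table gave. The median log2 change of the 9 genes was 0.61 in mutants, against -0.0021 over all tested genes, and 0.49 in wild type, against 0.03. In mutants, 4 of the 9 were higher in every exposed than in every unexposed library and 1 was lower, against 25.1% and 23.1% of all tested genes. In wild type, 3 were higher and 1 was lower in this way, against 18.7% and 16.1%.

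**Figure D1:**
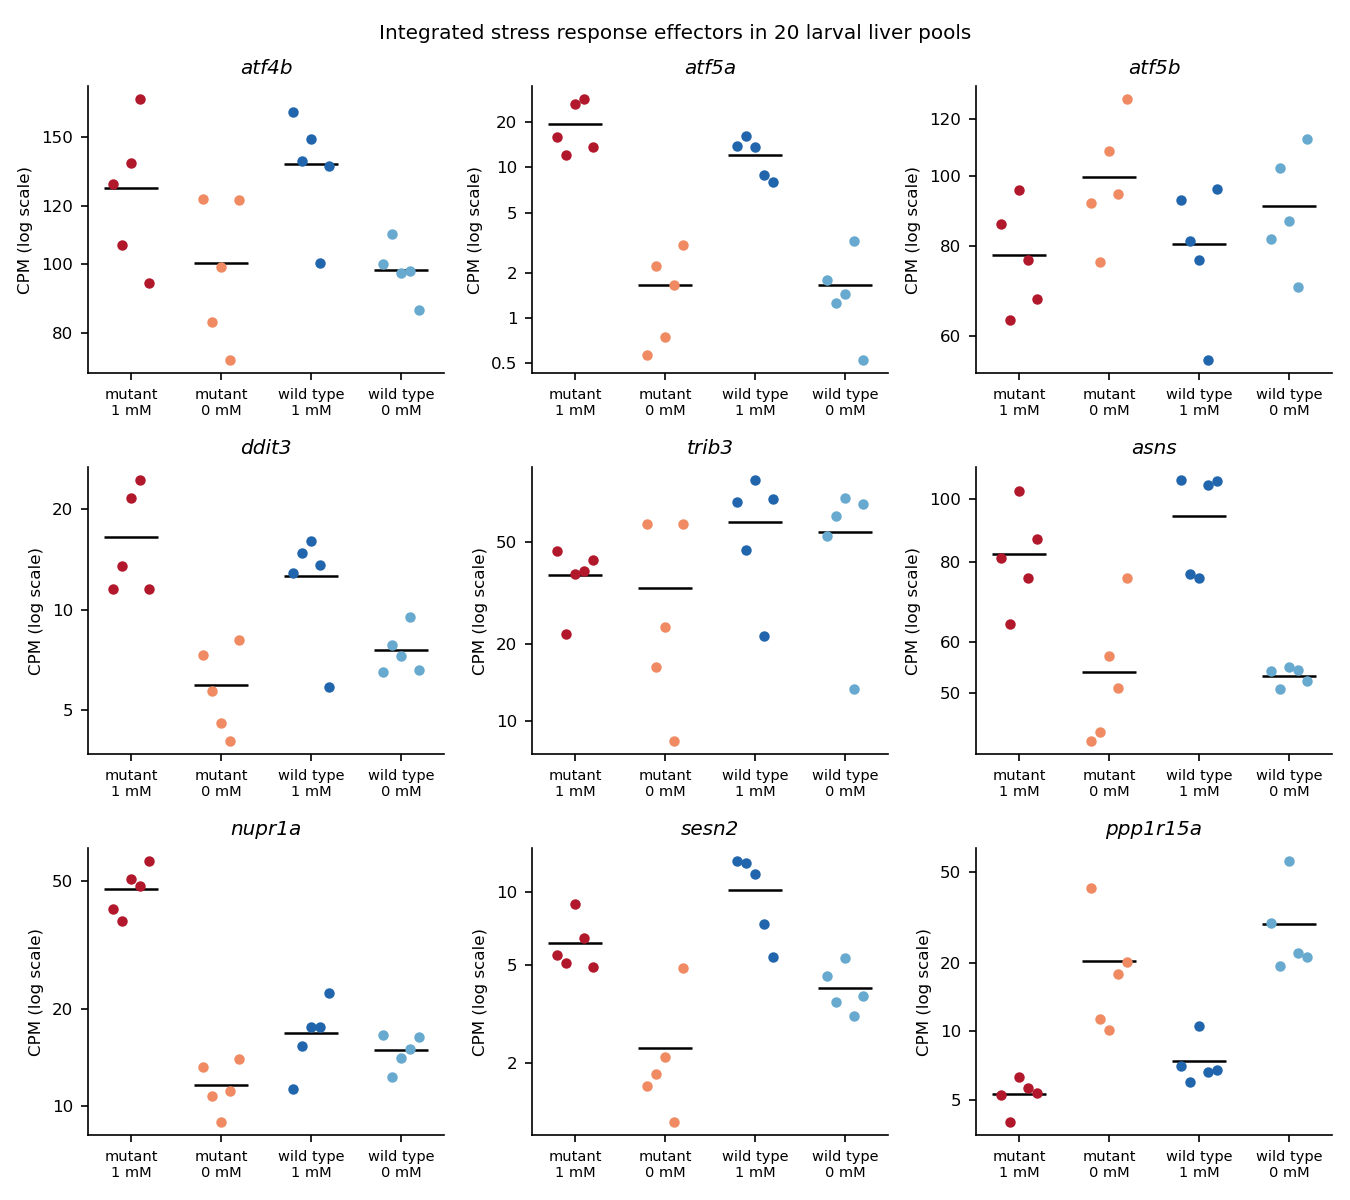
Abundance of the 9 effectors in CPM (log axis, a separate range for each gene) in 20 liver pools, with 1 point per library in order of replicate number and a line at the mean of each group of 5. The exposed mutants stand above all other libraries for nupr1a, at 37.4 to 57.5 CPM, and both exposed groups stand above both unexposed groups for atf5a.

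The transcription factor atf4b (ENSDARG00000038141), the counted zebrafish counterpart of mammalian ATF4, changed little in amount. Its abundance in replicates 1 to 5 was 129, 106, 138, 169 and 94.0 CPM in exposed mutants and 123, 83.0, 99.0, 73.5 and 123 CPM in unexposed mutants. The 2 groups overlapped, and the log2 fold change of 0.35 ± 0.16 (SE) did not pass (edgeR adjusted p = 0.0738). It did pass without exposed mutant replicate 5 (edgeR adjusted p = 0.0272), without unexposed mutant replicate 1 (0.0392) or 5 (0.038), when libraries were scaled to total counts (2.46e-06), and when exocrine pancreas transcripts entered as a covariate (0.0365). In wild type the values were 162, 139, 149, 100.3 and 137 CPM in exposed and 99.97, 109.8, 96.9, 97.5 and 86.2 CPM in unexposed libraries. All exposed libraries but replicate 4 were above every unexposed one, and atf4b rose by 0.49 ± 0.16 on the log2 scale (edgeR adjusted p = 0.0173).

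The related factor atf5a (ENSDARG00000068096), whose mammalian counterpart ATF5 also serves the mitochondrial stress response, rose more than any other of the 9 genes in both genotypes. It stood at 15.9, 12.1, 26.3, 28.4 and 13.6 CPM in replicates 1 to 5 of exposed mutants and at 0.567, 2.20, 0.745, 1.67 and 3.06 CPM in unexposed mutants. Exposed wild-type libraries held 13.9, 16.1, 13.6, 8.89 and 7.98 CPM and unexposed ones 1.78, 1.25, 1.44, 3.27 and 0.527 CPM. No exposed library overlapped an unexposed one. The log2 fold change was 3.51 ± 0.44 in mutants (edgeR adjusted p = 6.54e-07) and 2.87 ± 0.43 in wild type (edgeR adjusted p = 1.31e-05). The other paralogue behaved differently. Abundance of atf5b (ENSDARG00000077785) ranged from 63.1 to 95.7 CPM in exposed and 76.0 to 128 CPM in unexposed mutants, and from 55.6 to 95.8 CPM in exposed and 70.1 to 113 CPM in unexposed wild type. These ranges overlapped in both genotypes, and neither the log2 fold change of -0.36 ± 0.17 in mutants (edgeR adjusted p = 0.0671) nor that of -0.18 ± 0.17 in wild type (edgeR adjusted p = 0.389) passed. No direction is given for atf5b, since scaling to total counts turned both values positive (0.48 and 0.54), and leaving out exposed mutant replicate 3 (edgeR adjusted p = 0.0352), exposed wild-type replicate 4 (0.0478) or unexposed mutant replicate 2 (0.0312) took the value in mutants past the threshold.

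The gene of CHOP, ddit3 (ENSDARG00000059836), a factor linked to cell death under prolonged stress, rose in both genotypes. It measured 11.5, 13.5, 21.7, 24.5 and 11.5 CPM in exposed and 7.28, 5.70, 4.55, 4.02 and 8.12 CPM in unexposed mutants, with no overlap. This was a log2 fold change of 1.48 ± 0.27 (edgeR adjusted p = 7.09e-05). In wild type, ddit3 measured 12.9, 14.8, 16.1, 13.6 and 5.83 CPM in exposed and 6.48, 7.84, 7.24, 9.52 and 6.57 CPM in unexposed libraries. Exposed wild-type replicate 5 lay below every unexposed library and the other 4 lay above them all. Arsenite raised ddit3 by 0.75 ± 0.26 on the log2 scale (edgeR adjusted p = 0.0221), and the call was lost without exposed wild-type replicate 3 (0.65, edgeR adjusted p = 0.0595). The response was larger in mutants by 0.73 ± 0.37 on the log2 scale, a difference that did not pass (edgeR adjusted p = 0.31).

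Of the 2 feedback regulators, trib3 did not move with arsenite beyond its spread and ppp1r15a fell. The gene trib3 (ENSDARG00000016200) encodes a pseudokinase that in mammals is induced by ATF4 and CHOP and restrains them. Its abundance was 46.0, 21.98, 37.5, 38.4 and 42.6 CPM in replicates 1 to 5 of exposed mutants and 58.5, 16.2, 23.2, 8.39 and 58.9 CPM in unexposed mutants. In wild type it was 71.2, 46.3, 87.0, 21.5 and 73.2 CPM in exposed and 52.7, 63.2, 74.0, 13.4 and 70.2 CPM in unexposed libraries. Replicate 4 was the lowest library in 3 of the 4 groups, and unexposed mutants differed among themselves by 7.02-fold. Arsenite gave a log2 fold change of 0.18 ± 0.48 in mutants (edgeR adjusted p = 0.762) and 0.13 ± 0.47 in wild type (edgeR adjusted p = 0.836). The gene CHAC1, which encodes an enzyme that degrades glutathione and is an ATF4 and CHOP target in mammals, was also lowest in replicate 4, in all 4 groups. It was looked at after its values were seen.

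Transcripts of ppp1r15a (ENSDARG00000069135), the inducible eIF2 phosphatase subunit, fell in both genotypes, whereas ddit3 and atf5a rose in the same libraries. Exposed mutants held 5.27, 4.00, 6.32, 5.64 and 5.35 CPM and unexposed mutants 42.3, 11.3, 10.1, 17.8 and 20.1 CPM. Exposed wild-type libraries held 7.07, 5.97, 10.5, 6.61 and 6.76 CPM and unexposed ones 29.8, 19.2, 55.7, 21.9 and 21.2 CPM. Within each genotype every exposed library was below every unexposed one. Its log2 fold change was -1.93 ± 0.34 in mutants (edgeR adjusted p = 5.54e-05) and -2.001 ± 0.34 in wild type (edgeR adjusted p = 5.53e-05). Single unexposed libraries stood high, and without them the changes were -1.48 (mutant replicate 1 left out, edgeR adjusted p = 0.000154) and -1.64 (wild-type replicate 3 left out, edgeR adjusted p = 0.000198).

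Among the target genes, asns (ENSDARG00000016375), which encodes asparagine synthetase, rose modestly in both genotypes. It stood at 81.1, 64.0, 103, 75.5 and 86.9 CPM in exposed and 42.2, 43.6, 57.2, 51.0 and 75.6 CPM in unexposed mutants. Unexposed mutant replicate 5 reached the range of the exposed libraries, and the other 4 lay below it. Exposure raised asns by 0.61 ± 0.15 on the log2 scale (edgeR adjusted p = 0.00191). In wild type, asns stood at 107, 76.5, 75.4, 105 and 107 CPM in exposed libraries and within 50.8 to 54.9 CPM in unexposed ones. As a ratio of highest to lowest library, that 1.08-fold range was the narrowest of any of the 9 genes in any group. The groups did not overlap, and the log2 fold change was 0.82 ± 0.15 (edgeR adjusted p = 0.000155).

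The gene sesn2 (ENSDARG00000070012) encodes a sestrin, known in mammals as a leucine sensor that restrains the growth kinase complex mTORC1. It measured 5.54, 5.12, 8.90, 6.46 and 4.93 CPM in exposed and 1.61, 1.80, 2.11, 1.15 and 4.87 CPM in unexposed mutants. The groups touched without overlapping, since unexposed mutant replicate 5 lay just under the lowest exposed library. The log2 fold change was 1.41 ± 0.32 (edgeR adjusted p = 0.000763), and 1.90 without that library (edgeR adjusted p = 9.31e-06). In wild type, sesn2 measured 13.3, 13.1, 11.8, 7.35 and 5.43 CPM in exposed and 4.52, 3.56, 5.35, 3.11 and 3.76 CPM in unexposed libraries, again without overlap. This gave a log2 fold change of 1.33 ± 0.32 (edgeR adjusted p = 0.00151).

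The gene nupr1a (ENSDARG00000094300), which encodes a small stress-induced nuclear protein, responded in mutants. Its abundance in replicates 1 to 5 of exposed mutants was 40.8, 37.4, 50.8, 48.3 and 57.5 CPM, and 13.2, 10.8, 8.94, 11.2 and 14.0 CPM in unexposed mutants. In wild type it was 11.3, 15.4, 17.5, 17.6 and 22.4 CPM in exposed and 16.6, 12.4, 14.1, 15.1 and 16.4 CPM in unexposed libraries. Exposed mutants were above all 15 other libraries, while exposed and unexposed wild type overlapped. In mutants the log2 fold change was 2.02 ± 0.17 (edgeR adjusted p = 2.07e-09), and in wild type it was 0.18 ± 0.16 (edgeR adjusted p = 0.368). Scaled to total counts the wild-type change was 0.89 and passed (edgeR adjusted p = 1.97e-05), close to the median shift of 0.75 that this scaling gave all genes.

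**Figure D2:**
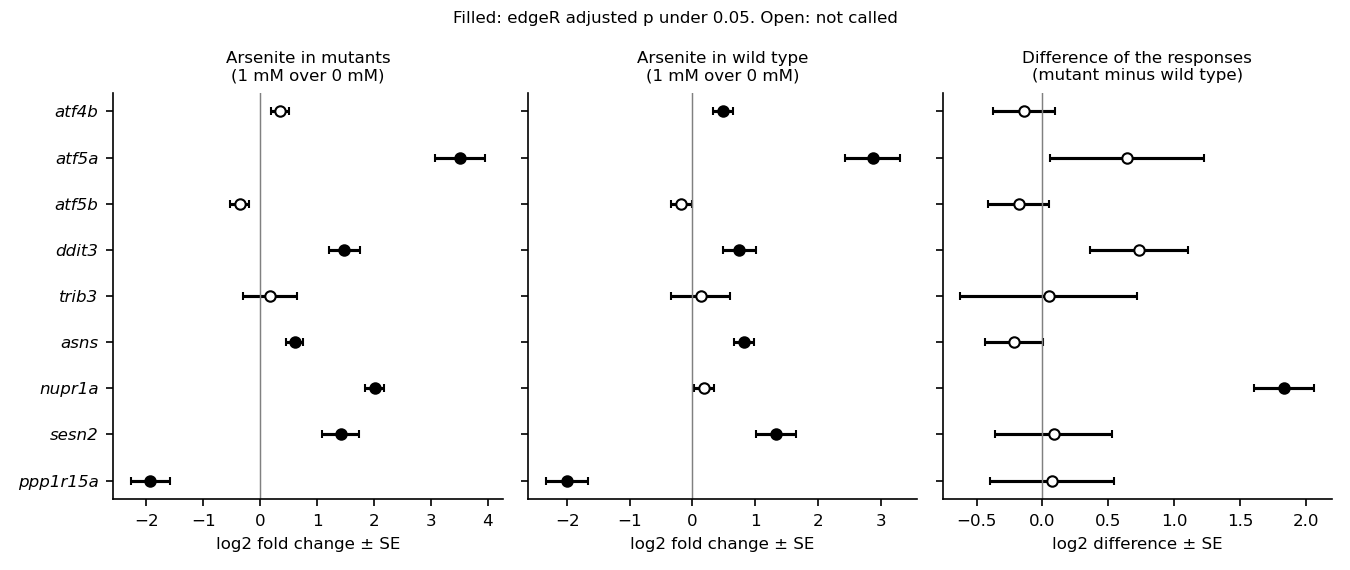
Log2 fold change of each effector with arsenite in mutants and in wild type (1 mM over 0 mM), and the difference of these responses (mutant minus wild type), with bars of 1 SE from 5 libraries per group and filled points for edgeR adjusted p under 0.05. In the right panel only nupr1a, at 1.84, is filled.

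The test of the difference between the arsenite responses singled out nupr1a. Of the 9 effectors it was the only one called, with a difference of 1.84 ± 0.23 on the log2 scale (edgeR adjusted p = 0.000162), where 3.98% of all tested genes were called, 1.31% up and 2.67% down. The call held in every alternative tried, from 1.73 to 2.05. The differences of the other 8 lay between -0.22 ± 0.22 (asns) and 0.73 ± 0.37 (ddit3). With SEs of up to 0.67, for trib3, these do not show that the genotypes responded alike.

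Between genotypes under arsenite, nupr1a was again the only effector called, higher in exposed mutants than in exposed wild type by 1.48 ± 0.16 (edgeR adjusted p = 1.87e-06), where 20.6% of all tested genes were called, 7.68% up and 12.9% down. It was also the only one whose exposed groups did not overlap, as for 6.66% of tested genes in that direction and 8.74% in the other. The next in size of effect relative to its error was sesn2, with a mean of 6.19 ± 1.63 CPM (SD, n = 5) in exposed mutants and 10.2 ± 3.60 CPM in exposed wild type. This log2 difference of -0.72 ± 0.31 did not pass (edgeR adjusted p = 0.106), but did without unexposed mutant replicate 5, which enters it through the shared estimate of spread (-0.72, edgeR adjusted p = 0.0388).

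Without arsenite, none of the 9 effectors was called between genotypes by edgeR, and none by the DESeq2 Wald test, where 13.8% of all tested genes were called by edgeR, 5.91% up and 7.91% down. The genotypes overlapped for all 9, while 4.44% of tested genes were higher and 6.12% lower in every unexposed mutant library. At an unadjusted p under 0.05 there were 2, sesn2 (log2 difference -0.81 ± 0.33, edgeR adjusted p = 0.109) and nupr1a (-0.36 ± 0.16, edgeR adjusted p = 0.148). Abundance of sesn2 averaged 2.31 ± 1.47 CPM (SD, n = 5) in unexposed mutants and 4.06 ± 0.88 CPM in unexposed wild type. Without unexposed mutant replicate 5 its log2 difference was -1.29 and passed (edgeR adjusted p = 0.00545). Without unexposed mutant replicate 1, ppp1r15a passed at -0.995 (edgeR adjusted p = 0.0273), against -0.55 ± 0.33 with all libraries (edgeR adjusted p = 0.291).

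The genes nupr1a and ppp1r15a each have a paralogue outside the 9 genes that moved against them, for ppp1r15a in both genotypes and for nupr1a in mutants only. In the pair encoding eIF2 phosphatase subunits, ppp1r15b (ENSDARG00000068128), the counterpart of the constitutive subunit of mammals, rose with arsenite while ppp1r15a fell. Exposed mutants held 12.1, 8.85, 19.4, 24.7 and 4.51 CPM of ppp1r15b and unexposed mutants 0.19, 0.11, 0.04, 0.09 and 0.46 CPM, which rest on 1 to 15 counts per library. Exposed wild type held 21.1, 32.9, 18.1, 6.64 and 2.09 CPM and unexposed wild type 2.92, 1.88, 0.99, 1.05 and 0.77 CPM. Only in wild type did the groups overlap, through exposed replicate 5. The log2 fold change was 6.22 ± 0.78 in mutants (edgeR adjusted p = 7.16e-07) and 3.43 ± 0.62 in wild type (edgeR adjusted p = 0.000105). Without arsenite, ppp1r15b was lower in mutants than in wild type by a log2 difference of -3.01 ± 0.81 (edgeR adjusted p = 0.0165), a call lost without unexposed wild-type replicate 1 (-2.63, edgeR adjusted p = 0.056). The difference of the responses, 2.80 ± 0.98, did not pass (edgeR adjusted p = 0.12) and did by DESeq2 (adjusted p = 0.0432).

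The paralogue nupr1b (ENSDARG00000094557) fell in both genotypes. It averaged 82.6 ± 22.1 CPM (SD, n = 5) in exposed mutants and 288 ± 126 CPM in unexposed mutants, and 153 ± 33.1 CPM in exposed and 444 ± 97.8 CPM in unexposed wild type. The log2 fold change was -1.80 ± 0.25 in mutants (edgeR adjusted p = 2.86e-06) and -1.54 ± 0.25 in wild type (edgeR adjusted p = 2.85e-05). Of 18 genes related to the effectors by family or, for DDIT4, by name only, 6 rose and 9 fell in mutants. In wild type 5 rose and 7 fell. Over all tested genes 31.5% rose and 30.3% fell in mutants, and 28.7% rose and 24.6% fell in wild type. Under total counts 10 of the 18 rose and 3 fell in mutants and 11 rose and 2 fell in wild type. Below, ATF3, CEBPB, cebpg and DDIT4 count again among ATF4 or CHOP targets. There ppp1r15b counts again among genes of eIF2, and atf6 among those of the ATF6 and IRE1 branches. The difference of the responses that nupr1a showed was not called for nupr1b, at -0.26 ± 0.34 (edgeR adjusted p = 0.747). Reads that the authors' counting may have split between paralogues cannot be traced in these tables.

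**Figure D3:**
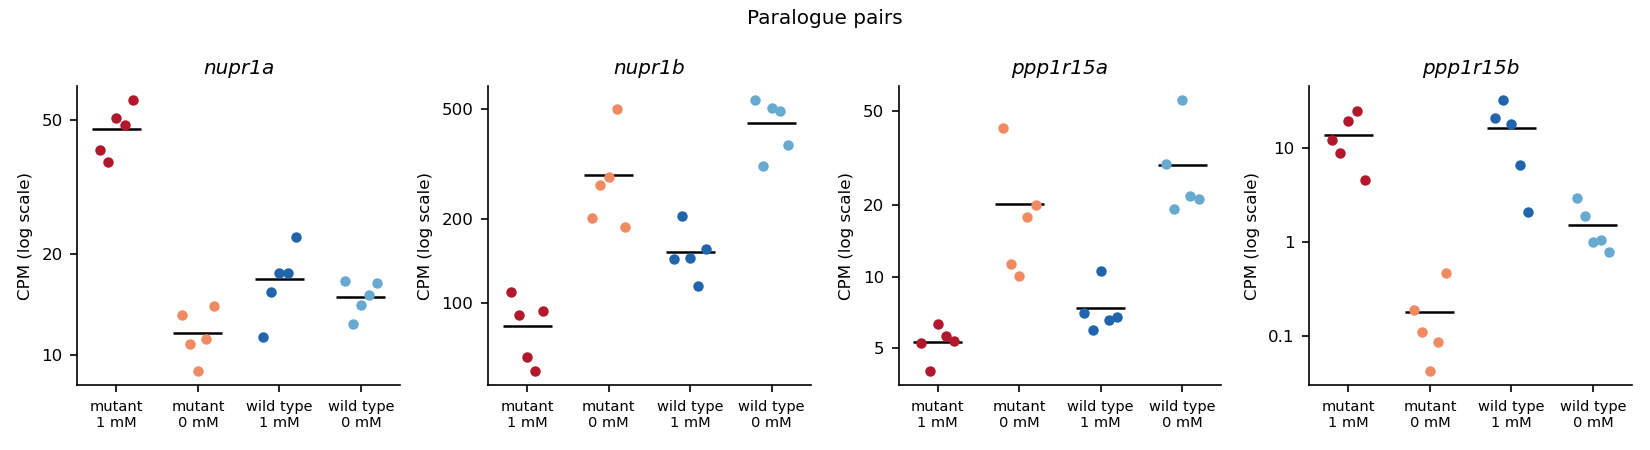
Abundance in CPM (log axis, a separate range for each gene) of 2 paralogue pairs in the 4 groups, with 1 point per library and a line at each mean. In exposed against unexposed libraries of the same genotype, nupr1b and ppp1r15a are lower and ppp1r15b is higher, and nupr1a is higher in mutants.

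Upstream of the effectors, genes of eIF2, its kinases, its exchange factor and its phosphatase, with GCN1, were mostly higher under arsenite. Of 16 tested, 13 rose and 2 fell in mutants, and 10 rose and 1 fell in wild type. The paralogue ppp1r15b is among the risers in both genotypes. These counts and those of the lists that follow stand beside 31.5% up and 30.3% down over all tested genes in mutants and 28.7% up and 24.6% down in wild type. The exchange factor subunit EIF2B1 rose by 2.47 ± 0.17 on the log2 scale in mutants (edgeR adjusted p = 1.73e-10) and by 1.78 ± 0.17 in wild type (edgeR adjusted p = 3.19e-08). The 4 eIF2 kinases were looked at together after their values were seen. The heme-regulated kinase eif2ak1 rose by 1.04 ± 0.13 in mutants (edgeR adjusted p = 5.45e-07) and by 0.95 ± 0.13 in wild type (edgeR adjusted p = 3.3e-06). The amino acid sensor EIF2AK4 rose in mutants by 0.40 ± 0.12 (edgeR adjusted p = 0.00614) and stood at 0.17 ± 0.12 in wild type (edgeR adjusted p = 0.238).

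The endoplasmic reticulum kinase EIF2AK3 fell by 0.59 ± 0.18 in mutants (edgeR adjusted p = 0.00767), and its value of -0.45 ± 0.18 in wild type (edgeR adjusted p = 0.0417) lost its call without exposed wild-type replicate 1, 3 or 4 or unexposed wild-type replicate 1, 3 or 5 (edgeR adjusted p from 0.0531 to 0.112). Scaled to total counts, both EIF2AK3 values turned positive (0.24 and 0.27). The kinase of double-stranded RNA, eif2ak2, was among the 13 that rose in mutants, at 0.59 ± 0.25 (edgeR adjusted p = 0.0493), and stood at 0.41 ± 0.28 in wild type (edgeR adjusted p = 0.22). The call in mutants held in 13 of 31 alternatives and was lost, at edgeR adjusted p of up to 0.147, without any 1 of several libraries (exposed mutant replicate 2, 3 or 4, unexposed mutant replicate 1, 2, 3 or 5, exposed wild-type replicate 1, 2 or 5, or unexposed wild-type replicate 4 or 5). Between genotypes eif2ak2 was higher in mutants than in wild type with arsenite by 1.65 ± 0.26 (edgeR adjusted p = 0.000118) and without it by 1.48 ± 0.28 (edgeR adjusted p = 0.00126). The other branches of endoplasmic reticulum stress did not rise as a group. Of 22 genes of the ATF6 and IRE1 branches, 2 rose and 9 fell in mutants and 0 rose and 7 fell in wild type, although under total counts 7 rose and 4 fell in mutants and 6 rose and 0 fell in wild type. Between genotypes, 14 of the 22 were lower in exposed mutants than in exposed wild type, and 10 were lower in unexposed mutants than in unexposed wild type, with none higher in either (9 and 7 under total counts). Over all tested genes 12.9% were lower in mutants with arsenite and 7.91% without it. In each of the 4 groups, 1 library was the highest for 15 to 19 of the 22. Transcripts of XBP1, the factor activated by IRE1, fell by 1.29 ± 0.18 in mutants (edgeR adjusted p = 2.35e-06) and fell by 0.83 ± 0.17 in wild type (edgeR adjusted p = 0.000454, or 0.527 scaled to total counts).

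Downstream, of 22 other stress genes known from mammals as ATF4 or CHOP targets, 6 rose and 10 fell in mutants. In wild type 6 rose and 8 fell. Scaled to total counts, 9 rose and 6 fell in mutants and 10 rose and 2 fell in wild type. Over all tested genes 31.5% rose and 30.3% fell in mutants and 28.7% rose and 24.6% fell in wild type. With TMM scaling these 22 stress genes thus rose at about the share of the whole table and fell more often than it. Their median log2 change was -0.65 in mutants, against -0.0021 over all tested genes, and -0.24 in wild type, against 0.03. The stress factor ATF3 rose to 15.4 ± 2.93 CPM (SD, n = 5) in exposed mutants, against 0.857 ± 0.598 CPM in unexposed mutants (log2 fold change 4.15 ± 0.55, edgeR adjusted p = 1.59e-06). In wild type ATF3 rose to 20.9 ± 10.5 CPM in exposed libraries, against 2.10 ± 1.98 CPM in unexposed ones (log2 fold change 3.33 ± 0.52, edgeR adjusted p = 1.84e-05). The cystine transporter slc7a11 held 7.66 to 17.5 CPM in exposed mutants and 0 to 0.613 CPM in unexposed mutants, and 2.09 to 17.2 CPM in exposed and 0 to 0.09 CPM in unexposed wild type. The cell death gene bbc3 was higher in exposed mutants, at 7.63 ± 3.69 CPM, than in exposed wild type, at 1.49 ± 0.734 CPM (log2 difference 2.34 ± 0.39, edgeR adjusted p = 0.00022).

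In the other direction, CHAC1 fell to 80.7 ± 52.0 CPM in exposed mutants, against 686 ± 541 CPM in unexposed mutants (SD, n = 5, log2 fold change -3.09 ± 0.61, edgeR adjusted p = 0.000181). In wild type CHAC1 changed by -1.76 ± 0.58 (edgeR adjusted p = 0.0147, or 0.0953 scaled to total counts). The mTORC1 inhibitor DDIT4 showed no called arsenite response, with -1.20 ± 0.64 in mutants (edgeR adjusted p = 0.11) and -0.42 ± 0.56 in wild type (edgeR adjusted p = 0.552). It was lower in mutants than in wild type by a log2 difference of -3.78 ± 0.64 with arsenite (edgeR adjusted p = 0.000243) and of -3.00 ± 0.63 without it (edgeR adjusted p = 0.00309). DDIT4 held 0.461 to 0.898 CPM in exposed mutants and 6.24 to 15.6 CPM in exposed wild type. Without arsenite the genotypes overlapped, at 0.259 to 3.40 CPM in mutants and 1.09 to 21.85 CPM in wild type. The arsenite value of DDIT4 in mutants passed without unexposed mutant replicate 4 (edgeR adjusted p = 0.0414) or unexposed wild-type replicate 4 (0.0466).

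The 20 genes of cytosolic aminoacyl-tRNA synthetases and tRNA export tested all rose in both genotypes, with a median log2 change of 1.48 in mutants and 1.23 in wild type, against 0.61 and 0.82 for asns. None of the 20 was called for the difference of the responses by edgeR, where 3.98% of all tested genes were called. This does not show that the genotypes responded alike. The synthetase EPRS1 rose by 2.13 ± 0.18 in mutants (edgeR adjusted p = 4.1e-09) and by 1.78 ± 0.18 in wild type (edgeR adjusted p = 1.05e-07). A separate list held 28 genes of amino acid synthesis and uptake that are also known from mammals as ATF4 targets. Of these 28, 10 rose and 10 fell in mutants and 13 rose and 9 fell in wild type (15 up and 7 down, and 17 up and 5 down, under total counts). In mutants this is close to the 31.5% up and 30.3% down of all tested genes, and in wild type the whole table gave 28.7% up and 24.6% down. The amino acid transporter SLC38A2 rose by 2.71 ± 0.36 in mutants (edgeR adjusted p = 1.65e-06) and by 3.29 ± 0.38 in wild type (edgeR adjusted p = 4.52e-07). The transporter SLC43A1 (ENSDARG00000037748) changed by -7.22 ± 0.44 in mutants (edgeR adjusted p = 4.17e-11) and by -4.46 ± 0.38 in wild type (9.26e-09). Likewise slc7a1a changed by -3.25 ± 0.23 (edgeR adjusted p = 2.36e-10) and -2.36 ± 0.22 (3.56e-08). For the difference of the responses, 0 of the 28 were called up and 2 down, against 2.67% of all tested genes down. They were SLC43A1 (-2.76, edgeR adjusted p = 0.00616) and GOT1 (-0.96, 0.0423).

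The serine synthesis genes PHGDH and PSAT1, looked at after their values were seen, rose in both genotypes. PHGDH held 51.8 to 70.4 CPM in exposed mutants and 0.372 to 27.3 CPM in unexposed mutants, and 51.9 to 90.9 CPM in exposed and 3.27 to 11.3 CPM in unexposed wild type. PSAT1 held 65.2 to 100.5 CPM in exposed mutants and 1.21 to 27.8 CPM in unexposed mutants, and 66.3 to 97.9 CPM in exposed and 0.808 to 3.24 CPM in unexposed wild type. Their log2 fold changes in mutants were 3.13 ± 0.70 for PHGDH (edgeR adjusted p = 0.00066) and 3.52 ± 0.68 for PSAT1 (edgeR adjusted p = 0.000136). The highest unexposed value of both genes was that of mutant replicate 5, and without that library the changes were 5.01 (edgeR adjusted p = 7.54e-08) and 5.62 (edgeR adjusted p = 7.63e-11).

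Around sesn2, the sestrins, looked at together after their values were seen, did not move as 1 family. The sestrin sesn3 rose by 1.21 ± 0.20 in mutants (edgeR adjusted p = 2.83e-05) and by 1.00 ± 0.20 in wild type (edgeR adjusted p = 0.000366), and like sesn2 did so in each scaling. SESN1 fell by 0.89 ± 0.18 in wild type (edgeR adjusted p = 0.000349, or 0.412 scaled to total counts). In mutants its value of -0.47 ± 0.18 (edgeR adjusted p = 0.0282) lost the call without exposed mutant replicate 1 or 2 or unexposed mutant replicate 4 or 5 (edgeR adjusted p from 0.0536 to 0.0708), and turned to 0.37 under total counts. Of 20 genes of the GATOR, Rag, LAMTOR, CASTOR, TSC and mTOR complexes, 8 rose and 0 fell in mutants. In wild type 9 rose and 1 fell. Under total counts 20 rose in mutants and 19 in wild type, and 0 fell. The Rag GTPase gene rragd held 1.39 to 4.42 CPM in exposed mutants and 0 to 0.12 CPM in unexposed mutants, and 0.21 to 0.93 CPM in exposed and 0 to 0.10 CPM in unexposed wild type. Of 15 mitochondrial stress genes, 11 rose and 3 fell in mutants and 8 rose and 3 fell in wild type. The protease LONP1 rose by 2.82 ± 0.15 in mutants (edgeR adjusted p = 7.46e-12) and by 2.33 ± 0.15 in wild type (edgeR adjusted p = 2.72e-10). CLPX (ENSDARG00000067796) changed by -1.71 ± 0.14 in mutants (edgeR adjusted p = 1.94e-09) and by -1.32 ± 0.14 in wild type (edgeR adjusted p = 1.58e-07).

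**Figure D4:**
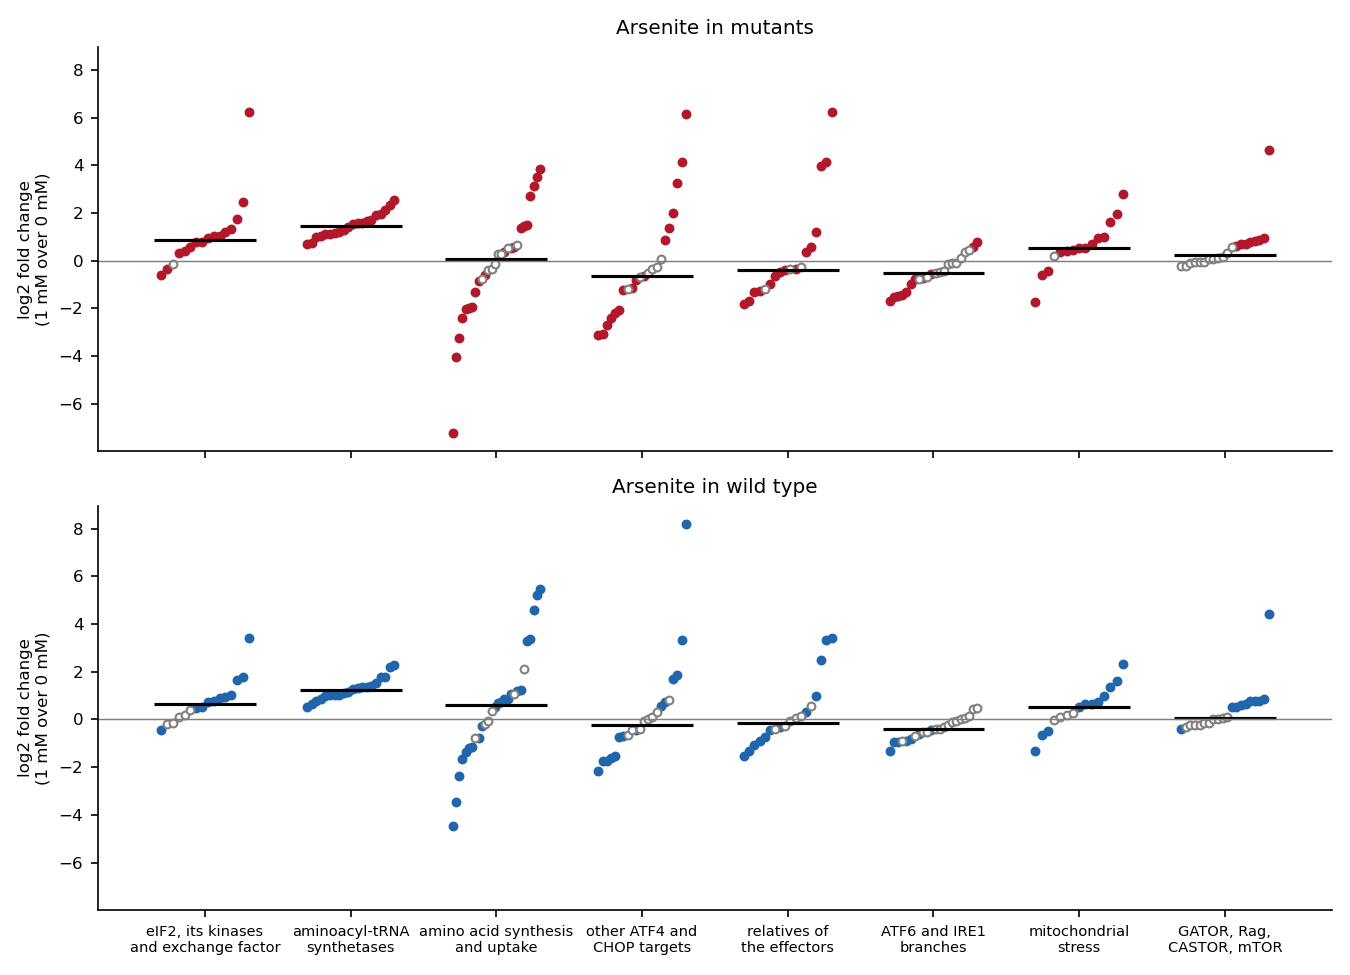
Log2 fold change with arsenite of each tested gene of 8 lists around the effectors, in mutants (top) and wild type (bottom), with filled points for edgeR adjusted p under 0.05 and a line at each list's median. All 20 synthetase and tRNA export genes lie above 0 in both panels, at medians of 1.48 and 1.23, and the other lists spread to both sides.

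Within groups, the effectors varied by library. Unexposed mutant replicate 5 was the highest of its group for 7 of the 9 effectors, and by a median of 0.62 on the log2 scale above the other 4. Over all tested genes it was the highest for 20.5%, with a median of 0.02. The same library was the highest for 18 of 20 synthetase and tRNA export genes, 12 of 16 genes of eIF2 and its partners, 20 of 28 genes of amino acid supply and 15 of 22 of the ATF6 and IRE1 branches. For these branches the top library of each other group held more, with 17 (exposed mutant replicate 1), 19 (exposed wild-type replicate 2) and 16 (unexposed wild-type replicate 1). For the synthetase and tRNA export genes it held 14 of 20 in exposed mutants, 13 in exposed and 12 in unexposed wild type. Hepatocyte markers of unexposed mutant replicate 5 lay at a median of -0.014 on the log2 scale from the other 4, with 2 of 15 the lowest of the group. Its stellate markers lay at -0.229 (6 of 12 the lowest), erythroid at -0.305 (3 of 5) and pancreas at -0.712 (0 of 14). Its endothelial, leukocyte, biliary and intestine markers lay at medians of -0.123 to 0.039. Where leaving out this library moved the call of an effector, the values are given above. Of other named genes, EIF2B1 and RARS1 then passed for the difference of the responses (0.904 and 0.755, edgeR adjusted p = 0.0103 and 0.0335). Between genotypes without arsenite both passed as well (-0.572 and -0.624, edgeR adjusted p = 0.0077 and 0.00595). There LONP1 (-0.443, edgeR adjusted p = 0.0343) and ATF3 (-1.814, 0.048) passed too, and SLC38A2 lost its call (1.083, 0.0721). Exposed mutant replicate 2 was the lowest of its group for 6 of 9 effectors. Exposed wild-type replicate 5 was the lowest of its group for atf5a, ddit3 and sesn2 and the highest for atf5b and nupr1a, and its summed hepatocyte markers were 144300 CPM, the highest of a group that began at 80580.

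**Figure D5:**
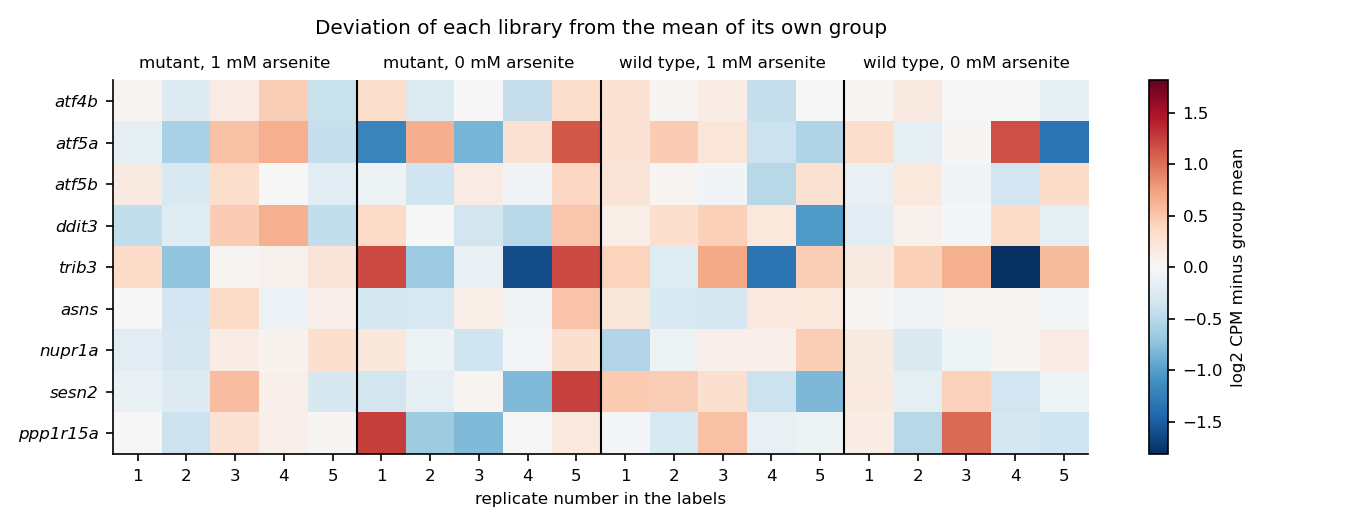
Log2 CPM of each effector in each library minus the mean of its own group of 5, in colour, with libraries in order of replicate number. Unexposed mutant replicate 5 and exposed mutant replicate 3 are above the mean (red) for all 9 genes, and exposed mutant replicate 2 is below it (blue) for all 9. For trib3, replicate 4 of both unexposed groups is darkest blue.

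Compared across all 20 libraries by the root mean square difference of centred log2 CPM (0 for the same profile), each effector was set against other genes that averaged 10 CPM or more. The nearest to asns was SARS1, a seryl-tRNA synthetase gene, at 0.161, where the median over candidates was 0.535. The nearest to sesn2 was NARS1, an asparaginyl-tRNA synthetase gene, at 0.408 (median 0.969). The nearest to atf5a was DHRS13 at 0.59 (median 1.82), and to nupr1a GTPBP1 at 0.287 (median 0.857). For ddit3 it was VPS13A at 0.294 (median 0.76), for trib3 SLC25A25 at 0.529 (median 0.985) and for ppp1r15a PIM1, a kinase gene, at 0.476 (median 1.13). The factors atf4b and atf5b had DLG5 and RASA1 as nearest genes, both at 0.217.

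Marker transcripts of several cell types moved with exposure as well. All 15 hepatocyte markers fell in both genotypes, to summed levels of 46230 to 70330 CPM in exposed mutants, against 232000 to 266300 in unexposed mutants, and of 80580 to 144300 CPM in exposed wild type, against 277500 to 308900 in unexposed wild type, with no marker at 0 in any library. Of these 15 markers, 11 were lower in exposed mutants than in exposed wild type, against 12.9% of all tested genes. For the difference of the responses, 4 were called down, against 2.67% of all tested genes. In such pools fewer cells of a type and less RNA per cell cannot be told apart. Summed exocrine pancreas markers, of 16 identifiers with 0 to 4 at 0 per library, ranged over 38.5 to 640 CPM in exposed mutants, 87.5 to 1369 in unexposed mutants, 13.6 to 65.0 in exposed wild type and 25.9 to 191 in unexposed wild type. Intestine markers, of 13 identifiers with 1 to 4 at 0, summed to 941 to 1608 CPM in exposed and 5182 to 7484 CPM in unexposed mutants, and to 1366 to 2423 CPM in exposed and 5736 to 7937 CPM in unexposed wild type. Of 11 endothelial markers, 9 fell and 1 rose in mutants and 10 fell and 1 rose in wild type, and 6 were lower in exposed mutants than in exposed wild type. Their sums were 79.4 to 87.7 CPM in exposed and 225.9 to 276.7 CPM in unexposed mutants, and 113.1 to 137.2 CPM in exposed and 187.6 to 272.7 CPM in unexposed wild type, with none at 0 in any library. Of 12 stellate cell markers tested, 8 fell in mutants and 5 in wild type, with sums of 60.3 to 72.0 CPM in exposed and 107.2 to 139.3 CPM in unexposed mutants, and of 67.7 to 92.7 CPM in exposed and 89.2 to 118.4 CPM in unexposed wild type. Leukocyte markers, of which 10 were tested, gave 2 up and 1 down in mutants and 1 up and 2 down in wild type, and their sums stayed between 9.97 and 39.8 CPM in all 20 libraries. Of 9 biliary markers tested, 1 rose and 4 fell in each genotype, with sums of 2820 to 3724 CPM in exposed and 2252 to 2764 CPM in unexposed mutants, and of 2693 to 3977 CPM in exposed and 2800 to 3217 CPM in unexposed wild type. Erythroid markers, of 7 identifiers, summed to 98.2 to 168.2 CPM in exposed and 150.9 to 209.7 CPM in unexposed mutants, and to 67.02 to 195.7 CPM in exposed and 74.3 to 226.5 CPM in unexposed wild type, and these ranges overlapped in both genotypes. The part of these markers in the effectors' changes was not tested. With the pancreas covariate every call of an effector given above still passed. That covariate was built from pancreas markers alone, of which 12 of 14 tested were not called with arsenite in each genotype. It does not bear on the other marker lists.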

How the data were processed

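The values used were whole-number counts per Ensembl gene identifier that the authors deposited, with 1 table for each of 20 libraries. Per the submitters' processing notes, the tools were FastQC 0.11.5 and Trimmomatic 0.36, and the genome build was GRCz10. Which aligner, counter and annotation were used is not given in the sources used here. Per the labels' protocols, RNA had an integrity number above 7 and 100 ng went into a library. The labels name a kit that keeps strand and one that does not, so overlapping genes cannot be separated with certainty. Symbols from the name table were found for 26269 identifiers (81.8%).

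Genes were kept by filterByExpr (16389) and scaled by TMM. A model of 4 group means over all libraries was fitted with edgeR 4.0.16 (R 4.3.3, limma 3.58.1). The common biological coefficient of variation came to 0.28. Comparisons used 2-sided quasi-likelihood F tests, adjusted over all tested genes and called under 0.05. To obtain an SE, the size of each log2 change was divided by the root of F. Tables and plots used Python 3.11.15, pandas 2.3.3, numpy 2.4.6 and matplotlib 3.10.9. The scripts were tested on simulated counts. No 2 libraries of the same group agreed within counting noise.

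The effectors, gene lists and marker lists were chosen with earlier results of these data known. Named genes were the effectors, as3mt, genes among the 3 smallest adjusted p-values of each list and comparison that bear on an effector's role, and the nearest profile of each effector (prior count 2). Genes outside this rule are marked in the text. Alternatives were other scalings (DESeq2 size factors, total counts, the 20 most abundant genes left out), other filters, robust dispersions, DESeq2 1.42.0, only the groups compared, the replicate number as a block, a pancreas covariate and each library left out.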

Additional observations from a re-analysis of the deposited data

Results flagged for a closer look

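A library far from the other 4 of its group was flagged by Dixon's test in 11 of 156 groups of 5 (7.1%), and chance flags about 1 in 20. Among the effectors, 2 of 36 groups were flagged. The level of sesn2 was 4.87 CPM in unexposed mutant replicate 5, against 1.15 to 2.11 in the others of that group, and that of ppp1r15a was 10.54 CPM in exposed wild-type replicate 3, against 5.97 to 7.07. Of the other 9 flags, 8 were high values of unexposed mutant replicate 5. They were slc7a11 at 0.6126 CPM, EIF2B4 at 55.23, FARSB at 44.23, EPRS1 at 126.5, RARS1 at 41.78, CARS1 at 40.52, PHGDH at 27.26 and PSAT1 at 27.78 CPM. The remaining one was EIF2S2 at 516.3 CPM in exposed mutant replicate 4, against 424.6 to 446.0 in the other exposed mutants.

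The arsenite response of nupr1a was flagged because it differed between genotypes by a test of the difference itself, at 1.84 on the log2 scale (edgeR adjusted p = 0.000162). All 5 exposed mutant libraries were above all 5 exposed wild-type libraries.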

How the results depend on the processing

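Of 1403 values of effectors under the alternatives, 1386 stayed on their side of the threshold, 2 lost a call and 13 gained one in the same direction. Another 2 turned sign and passed. Values not called in either fit were counted among the 1386 even if their sign changed. One such gene was trib3 in mutants, at 0.176 and down to -0.073. Scaled to total counts, atf5b turned to 0.481 in mutants and 0.544 in wild type, EIF2AK3 to 0.238 and 0.27 and SESN1 in mutants to 0.365. This scaling gave 5470 genes called for genotype with arsenite, against 3369, and the share of calls that were up became 83.4%, 88.1%, 78.5%, 74.1% and 53.9%, against 51.0%, 53.8%, 37.4%, 42.7% and 32.8% (arsenite in mutants, arsenite in wild type, genotype with arsenite, genotype without, difference of the responses). In that order, a mean of at least 10 CPM left 4959, 4511, 1969 and 1094 genes called for the first 4, against 10132, 8739, 3369 and 2265, with fewer genes tested. The pancreas covariate left 1058 for genotype without arsenite. The DESeq2 Wald test called 1083 genes for the difference (44.0% up), against 652. Without 1 library at a time this count ran from 383 (exposed mutant replicate 3 left out) to 793, with 405 and 408 without exposed mutant replicate 4 and exposed wild-type replicate 2. Effectors called then numbered 1 to 2 for genotype with arsenite and 0 to 1 for genotype without. For genotype without arsenite, PHGDH was not called and ran from -1.747 (without unexposed mutant replicate 5, where it was called) to 0.442 with 1 library left out. For these changes the cause was not tested.

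The labels give each group the same replicate numbers, but they do not show that a number marks paired pools. Deviations of same-numbered libraries correlated above 0.1 in 15 of 30 pairs (-0.08 to 0.398), with a median of 0.102 against -0.021 for libraries of other numbers, and 14 of 20 libraries lay nearest their own number. With a replicate block over all libraries, 10317 genes were called for arsenite in mutants, 8989 for arsenite in wild type, 3765 for genotype with arsenite and 896 for the difference. With the block within genotype, ddit3 in wild type missed the threshold (0.687, edgeR adjusted p = 0.0553) and atf5b in mutants passed it (-0.351, edgeR adjusted p = 0.0224). Genes of few counts, such as ppp1r15b in unexposed mutants, have folds that rest on a handful of reads.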
